A study of Arabidopsis thaliana with 12 samples.

Results

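The genes described here are the 44 of 32954 genes whose deposited description names a 30S or 50S ribosomal protein and which lie on the 5 nuclear chromosomes of Arabidopsis. The rule uses that wording and no expression value, though it was set with earlier results of these data known. The description places 29 of them in the chloroplast and 4 in the mitochondrion. A further gene, *RPS16-2*, is given to both organelles, and 10 carry no location. The name "chloroplast-type" therefore holds by description for 29 genes, 8 of the small subunit and 21 of the large one. Of a separate list of 41 nuclear genes for plastid ribosomal proteins, written from general knowledge, 29 were among the 44 and 12 were described in other words.

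Chloroplasts translate their own small set of mRNAs on ribosomes of the bacterial kind, built from a 30S and a 50S subunit. Part of the ribosomal proteins is encoded in the plastid genome, while the majority is made in the cytosol from nuclear genes and imported. Plants carry such 70S-type ribosomes in mitochondria too, so a description that says only 30S or 50S can mean either organelle. In leaves the plastid ribosomes make core subunits of both photosystems and the large subunit of Rubisco, and the nuclear genes for their proteins are among the strongly expressed housekeeping genes of green tissue.

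The values come from RNA of leaves or leaf discs of *Arabidopsis thaliana* Col-0 in 3 genotypes with 4 biological replicates each. These are wild types, the *pGlcT2* overexpressor line #5, in which the cDNA of this plastid sugar transporter gene stood behind the constitutive cauliflower mosaic virus 35S promoter, and the knock-out line *glct2* with a T-DNA in the first intron of *pGlcT2*. The study's text says that the overexpressors were made on the basis of *glct2*, which its methods state only for the complementation line, and each mutant genotype is a single line. All plants had been kept for 24 days in short days, followed by 10 to 12 days of permanent light at a photon flux between 100 and 120 μmol per square metre and second. *pGlcT2* (*At1g05030*) separated the genotypes, with 9.31 ± 0.771 FPKM in wild types, 206 ± 25.1 in the overexpressor and 3.09 ± 0.554 in *glct2* (SD, n = 4). FPKM are reads scaled to the length of the gene and to a size set for each library, so they can be compared between genes. Between 17448191 and 24276381 reads per library stood behind them. The size used was not this read total. Its ratio to the total ran from 0.927 to 0.987 among wild types. No mutant library was under 1.005 (*glct2* replicate 4), and the highest was 1.065 (*glct2* replicate 3). The deposited scaling thus differed between wild types and mutants. A fit rescaled to the read totals is among the alternatives given below. The test was run on the 18354 genes that reached 1 FPKM in 4 or more libraries, among them 40 of the 44, and "called" means an adjusted p under 0.05 (limma, all tested genes).

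The 5 genes whose level was called different between overexpressor and wild types carry the result, so the DNA in front of them is shown first. The stretches end at the base before the annotated start (TAIR10 coordinates) and reach back 250 bases, or, for *RPS16-2*, to the end of the neighbouring gene. Capitals mark matches on either strand to TGGGCC or TGGGCT, the site II words found in front of many genes for cytosolic ribosomal proteins, and to GATAAG, the core of the I-box known from light-regulated promoters.
HLP, chr5:18712560-18712809, minus strand: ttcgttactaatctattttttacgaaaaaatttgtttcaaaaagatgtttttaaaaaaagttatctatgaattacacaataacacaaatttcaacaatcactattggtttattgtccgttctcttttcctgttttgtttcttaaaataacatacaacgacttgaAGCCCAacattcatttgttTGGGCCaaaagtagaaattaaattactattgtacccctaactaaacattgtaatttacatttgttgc
L4, AT2G20060, chr2:8658731-8658980, plus strand: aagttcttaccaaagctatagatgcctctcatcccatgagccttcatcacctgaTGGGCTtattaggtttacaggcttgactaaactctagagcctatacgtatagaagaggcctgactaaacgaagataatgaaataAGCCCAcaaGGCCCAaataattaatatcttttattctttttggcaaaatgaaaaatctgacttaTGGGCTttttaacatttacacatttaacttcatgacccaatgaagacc
L24, AT5G23535, chr5:7935066-7935315, plus strand: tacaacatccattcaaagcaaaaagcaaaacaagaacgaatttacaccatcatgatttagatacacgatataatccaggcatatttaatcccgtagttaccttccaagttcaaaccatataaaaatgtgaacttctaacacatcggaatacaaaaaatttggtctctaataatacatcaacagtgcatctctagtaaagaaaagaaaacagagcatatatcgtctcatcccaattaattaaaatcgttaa
RPS16-2, chr5:23030640-23030746, plus strand: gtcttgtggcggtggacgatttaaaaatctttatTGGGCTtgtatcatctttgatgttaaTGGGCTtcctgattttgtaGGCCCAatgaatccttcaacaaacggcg
AT5G24490, chr5:8365351-8365600, plus strand: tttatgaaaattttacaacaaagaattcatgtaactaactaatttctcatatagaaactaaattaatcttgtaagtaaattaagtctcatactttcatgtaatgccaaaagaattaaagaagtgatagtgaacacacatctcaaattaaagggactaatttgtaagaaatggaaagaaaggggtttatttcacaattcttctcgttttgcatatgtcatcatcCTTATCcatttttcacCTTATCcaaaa

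Site II words stood in the windows of 3 of the 4 genes that rose, 2 in that of *HLP*, 4 in that of *AT2G20060* and 3 in that of *RPS16-2*. *AT5G24490*, the gene that fell, had none of them but 2 copies of the GATAAG word within 27 bases of its start, and *AT5G23535* held neither word. Among all 44 genes, 20 windows of 250 bases (45.5%) held TGGGCC or TGGGCT, against 19.2% of 27419 windows of protein-coding genes and 66.5% of 206 windows of genes for cytosolic ribosomal proteins. The share was 44.8% for the 29 genes named chloroplastic and 46.7% for the other 15. GATAAG was found in 20.5% of the 44 windows and 12.3% of all windows, the telo box AAACCCTA in 9.09% and 4.48%, the G-box CACGTG in 9.09% and 6.48%, and CCAATC in 9.09% and 10.2%. A match in a window is a description of the sequence and was not tested against expression.

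**Figure D1:**
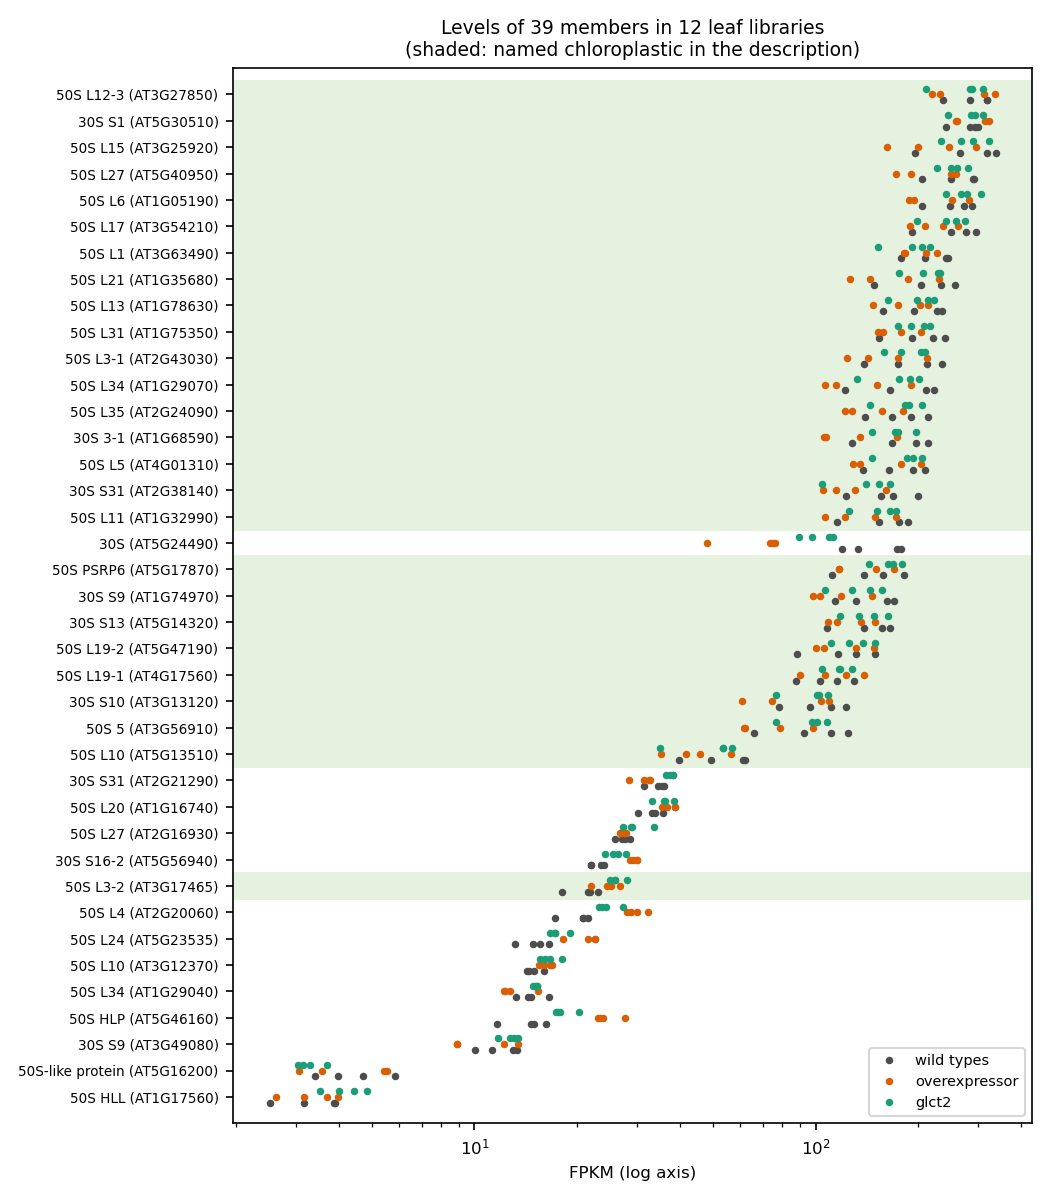
Level of 39 of the 40 tested genes in FPKM (horizontal log axis), with 1 point per library and 1 color per genotype, ordered by the wild-type mean. Genes named chloroplastic are shaded and have means above 50 FPKM in wild types, except *RPL3B* (L3-2), which lies at 21.1 among the genes of other or no stated location.

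The level in leaves went with the described location. Of the 27 tested genes named chloroplastic, 26 were above 50 FPKM in wild types, with a median of 178 and a range of 21.1 to 289 over the 27. Of the 13 other tested genes, 12 were below 50 FPKM, with a median of 15.04 and a range of 3.36 to 151. The exceptions were *RPL3B* (L3-2, named chloroplastic) at 21.1 ± 2.13 FPKM and *AT5G24490* (no location in the description) at 151 ± 29.2 FPKM (SD, n = 4). The reference annotation places the protein of *AT5G24490* in the chloroplast.

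The most abundant transcript was that of *RPL12C*, a copy of L12, which forms the flexible stalk of the 50S subunit where translation factors dock. It had 283, 237, 319 and 318 FPKM in wild types, 312, 337, 232 and 219 in the overexpressor and 287, 310, 210 and 284 in *glct2*. The 3 genotypes overlapped throughout. *RPS1*, whose bacterial counterpart holds mRNA on the 30S subunit at initiation, followed at 279 ± 26.5 FPKM in wild types, and then came *RPL15* (279 ± 63.4), *RPL27* (259 ± 40.6) and *RPL6* (254 ± 36.5; SD, n = 4). These neighbours in the order did not differ beyond their spread. The lowest tested genes were *HLL*, a mitochondrial L14-type protein known for its role in ovule development, at 3.36 ± 0.665 FPKM, *AT5G16200* at 4.48 ± 1.05 and *RPS9M* at 11.9 ± 1.53 (SD, n = 4).

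For 4 of the 44 genes the files held too few reads to test. Among them, *RPL12B* was listed at 0 in all 12 libraries, *AT2G03130* had 7 reads in all and *AT5G51610* had 35. *RPL12B* stands between *RPL12A* and *RPL12C*, which are near-identical copies, and how reads shared by the 3 were counted is not given, so their levels are uncertain. In all, 11 of the tested genes overlap an annotated gene of the opposite strand. The strand setting of the counting is not given in the sources used here, and their levels are uncertain to that extent.

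In the overexpressor, 4 of the 40 tested genes were higher than in wild types and 1 was lower. This is 12.5% of them, while 38.6% of all tested genes were called in this comparison, 18.7% higher and 19.9% lower. The same 5 genes were those with libraries that did not overlap between the genotypes, which held for 34.5% of all tested genes (15.9% all higher, 18.5% all lower). Limma voom on the recovered reads called 6 higher and 1 lower, again against 38.6% of all genes. None of the 5 carries the word chloroplastic alone. They are 38.5% of the 13 tested genes not named chloroplastic, near the 38.6% of all tested genes. The reference annotation places the protein of 1 of the 5, *AT5G24490*, in the chloroplast. In *glct2* against wild types 0 of the 40 were called, where 4.57% of all tested genes were (1.95% higher, 2.62% lower). At an unadjusted p under 0.05, 6 were higher and 1 was lower in *glct2*, against 10.7% and 11.6% of all tested genes, and limma voom called 1, *RPL3B*, as higher, against 4.29% of all genes. All 4 *glct2* libraries were above all wild types in 6 of the 40 genes and below them in 1, against 7.5% and 9.43% of all tested genes. The 6 were the 4 genes that rose in the overexpressor, *RPL3B* and *AT2G21290*, and the 1 was *AT5G24490*. When overexpressor replicate 4 was left out of the shared fit, *RPL3B* was called higher and *AT5G24490* lower in *glct2*. Between overexpressor and *glct2*, 4 were higher and 2 lower, where 33.5% of all tested genes were called (15.9% higher, 17.7% lower). Voom called 4 and 2 as well, against 33.6% of all genes, and 5 of the 40 genes had libraries without overlap, against 32.4% of all. The comparisons share their control libraries, so their calls are not independent of each other.

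*AT5G24490* was the gene that fell, and its change was also the largest of the 40 tested. It encodes a protein with the S30Ae domain of bacterial hibernation factors and is the Arabidopsis counterpart of spinach PSRP1, which sits between the ribosomal subunits and holds idle ribosomes together. It lies on the plus strand of chromosome 5 from 8365601 to 8367460. Its level was 133, 120, 178 and 174 FPKM in the wild types, 76.1, 75.0, 73.5 and 48.1 in the overexpressor and 97.7, 113, 89.7 and 109 in *glct2*. No overexpressor library reached the lowest wild type, and all *glct2* libraries lay between the other genotypes. On the log2(FPKM + 1) scale it fell by 1.14 ± 0.16 (SE) in the overexpressor (limma adjusted p = 2.1e-04). The fall of 0.60 ± 0.16 between *glct2* and the overexpressor was called as well (adjusted p = 0.015). Against wild types, the difference of −0.54 ± 0.16 in *glct2* was not called, although no library overlapped (95% interval −0.90 to −0.19, adjusted p = 0.079).

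**Figure D2:**
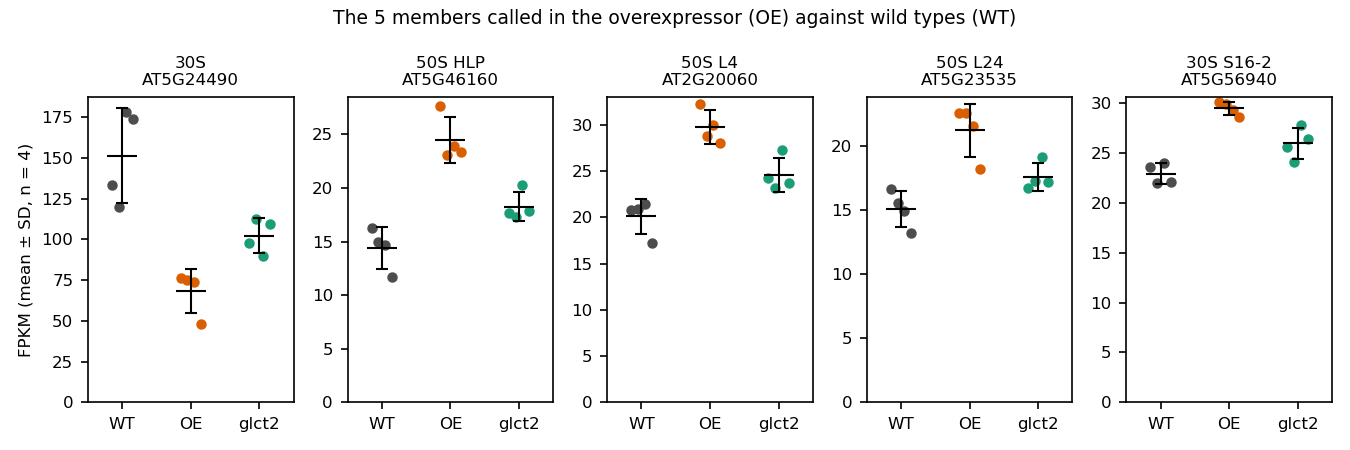
FPKM of the 5 genes called in the overexpressor (OE) against wild types (WT), with 1 point per library and the mean ± SD of 4 libraries as bars; each vertical axis starts at 0. *AT5G24490* is lower in all 4 overexpressor libraries (48.1 to 76.1) than in any wild type (120 to 178), and the 4 other genes are higher in all 4.

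The 4 genes that rose were *HLP*, *AT2G20060*, *AT5G23535* and *RPS16-2*. *HLP*, described as mitochondrial, is the paralogue of *HLL* and carries a bacterial-type L14 domain. It had 16.2, 14.9, 14.7 and 11.7 FPKM in wild types, 27.6, 23.1, 23.9 and 23.4 in the overexpressor and 17.6, 17.3, 20.3 and 17.8 in *glct2*. The 3 genotypes did not overlap, with *glct2* in the middle. It rose by 0.73 ± 0.09 in the overexpressor (limma adjusted p = 1.0e-04), and in *glct2* the difference was 0.33 ± 0.09 (adjusted p = 0.068).

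*AT2G20060* encodes a protein of the L4 family, which in bacteria lines the exit tunnel of the large subunit. Its values were 20.8, 20.9, 21.5 and 17.3 FPKM in wild types, 32.2, 28.8, 29.98 and 28.01 in the overexpressor and 24.3, 23.2, 27.3 and 23.7 in *glct2*. Again each genotype stood apart from the others, in the same order. The rise in the overexpressor was 0.55 ± 0.08 (limma adjusted p = 1.9e-04), and the difference in *glct2* was 0.28 ± 0.08 (adjusted p = 0.061).

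*AT5G23535* encodes an L24-type protein, which in bacteria starts the assembly of the large subunit. It had 16.6, 15.5, 14.9 and 13.2 FPKM in wild types, 22.5, 22.5, 21.5 and 18.2 in the overexpressor and 16.7, 17.3, 19.1 and 17.2 in *glct2*. The overexpressor lay above all wild types and overlapped with *glct2* in 1 library. The rise was 0.47 ± 0.08 (limma adjusted p = 9.5e-04). *RPS16-2*, the copy of S16 sent to both organelles, had 23.5, 22.0, 24.0 and 22.0 FPKM in wild types, 30.03, 29.9, 29.2 and 28.6 in the overexpressor and 25.6, 24.1, 27.8 and 26.4 in *glct2*. It rose by 0.35 ± 0.06 (adjusted p = 3.9e-04), with *glct2* between the other genotypes and overlapping neither.

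Against *glct2*, the overexpressor was higher in the same 4 genes, by 0.40 ± 0.09 for *HLP* (limma adjusted p = 0.0066), 0.27 ± 0.08 for *AT2G20060* (0.020), 0.18 ± 0.06 for *RPS16-2* (0.026) and 0.25 ± 0.08 for *AT5G23535* (0.034). Without overexpressor replicate 1 or *glct2* replicate 2, *HLP* was the only one of the 4 still called, and leaving out overexpressor replicate 2 or 3 or *glct2* replicate 1 or 4 lost 1 or 2 of the other calls. Lower in the overexpressor than in *glct2* were *AT5G24490* and *AT2G21290*, a mitochondrial S31 protein. *AT2G21290* had 35.6, 31.3, 34.6 and 35.8 FPKM in wild types, 32.8, 31.3, 32.5 and 28.5 in the overexpressor and 38.3, 36.5, 38.3 and 37.5 in *glct2*. The overexpressor libraries were all below those of *glct2* and overlapped with wild types (−0.26 ± 0.06, adjusted p = 0.0062, against *glct2*).

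**Figure D3:**
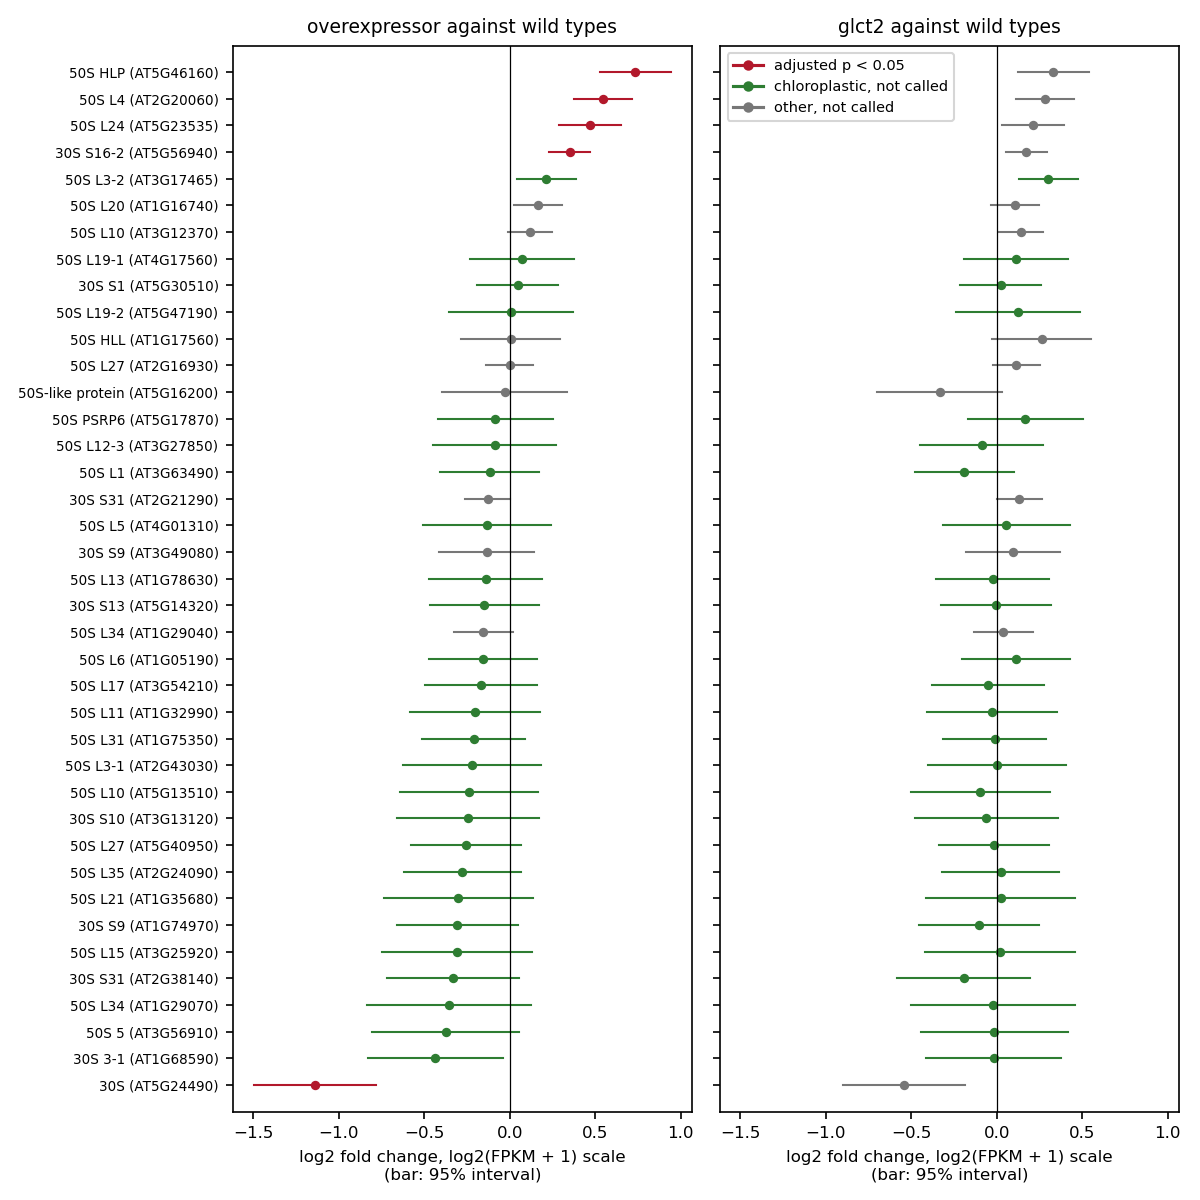
Log2 fold change of 39 of the 40 tested genes with its 95% interval, for the overexpressor (left) and *glct2* (right) against wild types, in the order of the left panel. The 5 called genes are red and carry intervals away from 0; the chloroplastic genes (green) run from −0.44 to 0.21 on the left and from −0.19 to 0.30 on the right, with none called.

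None of the 27 tested genes named chloroplastic was called in any of the 3 comparisons. With library quality weights, however, 6 of them were called in the overexpressor, *RPL3B* higher and *AT1G68590*, *PSRP5*, *RPS31*, *RPS9* and *RPL35* lower, 4 were lower in the overexpressor than in *glct2*, and 1 was called in *glct2*. In the overexpressor 23 of them had a mean below wild types, with a median log2 difference of −0.20 (a change of -13.02%), where the median of all tested genes was 0.0033. The libraries differed in this. The median deviation from the wild-type mean was −0.05, 0.12, −0.37 and −0.43 in overexpressor replicates 1 to 4, with 18, 0, 26 and 26 of the 27 genes below that mean. The genes moved together within a library, so the 23 are not independent observations. At an unadjusted p under 0.05, 1 was higher and 1 lower, against 23.5% and 24.1% of all tested genes, and limma voom called 1, *RPL3B*, as higher. In *glct2* the values lay on both sides, 12 above and 15 below wild types, with a median of −0.01. There, 1 was higher at an unadjusted p under 0.05 and limma voom called the same gene, *RPL3B*. Between overexpressor and *glct2* the median was −0.18, with 24 of 27 below and 0 called by limma or voom, and an unadjusted p under 0.05 was reached by 0 that were higher and 1 that was lower, against 21.7% and 22.6% of all tested genes. The medians in the overexpressor were −0.24 over 7 genes of the 30S and −0.18 over 20 genes of the 50S subunit, and their difference was not tested.

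The intervals say how large a change could have gone uncalled. In the overexpressor 25 of the 27 intervals held 0, and the widest reached down to −0.83, for *RPL34*. All 27 intervals lay within 1 log2 unit of 0 in both mutants, so a doubling or an equally strong fall lies outside each of them. Within 0.5 lay 12 of 27 in the overexpressor, 24 in *glct2* and 11 between the mutants. The standard errors of these genes were 0.08 to 0.22, with a median of 0.16, against 0.10 for all tested genes. Their coefficient of variation in wild types had a median of 18.1%, against 9.90% for all tested genes.

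Among the proteins with well-studied roles, *RPL11*, part of the site where translation factors bind, differed in the overexpressor by −0.20 (95% interval −0.58 to 0.18) and *RPL35* by −0.28 (−0.62 to 0.07). *RPS1* differed by 0.05 (−0.19 to 0.28) and *RPL12C* by −0.09 (−0.45 to 0.27). The lowest values in the overexpressor were those of *AT1G68590* (30S protein 3-1, known as PSRP3/1) at −0.44 (−0.83 to −0.04, limma adjusted p = 0.076) and *PSRP5*, a plastid-specific protein of the 50S subunit, at −0.38 (−0.80 to 0.05, adjusted p = 0.15). *AT1G68590* had 168, 128, 213 and 198 FPKM in wild types and 135, 174, 106 and 107 in the overexpressor, and 2 overexpressor libraries lay within the range of the wild types. *RPL34* and *RPS31* (PSRP4) followed at −0.36 and −0.33.

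*RPL3B* stood apart from the rest of the 27, with a level close to those of the mitochondrial genes and a difference in the other direction. It had 23.0, 21.5, 21.8 and 18.1 FPKM in wild types, 26.8, 25.1, 24.4 and 22.0 in the overexpressor and 25.8, 25.02, 27.95 and 25.8 in *glct2*. All *glct2* libraries were above all wild types, while the overexpressor overlapped with them. The differences were 0.21 (95% interval 0.04 to 0.38, limma adjusted p = 0.051) and 0.30 (0.13 to 0.47, adjusted p = 0.052). Both lay just outside the threshold, and 9 and 7 of 25 alternative settings called them.

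The genes named chloroplastic moved together from library to library within a genotype. In wild type replicate 2, 26 of 27 were below their wild-type mean, with a median of −0.37, and in replicate 3 all 27 were above it, with a median of 0.27. In overexpressor replicates 1 and 2 all 27 were above the overexpressor mean, and in replicates 3 and 4 all 27 were below it. In *glct2* replicate 3, 26 of 27 were below. Such movement was not particular to these genes. Of 189 genes for cytosolic ribosomal proteins, 178 were below their mean in wild type replicate 2 and 182 above it in replicate 3. Of the 12 plastid ribosomal proteins described in other words, 11 were below and 12 above in the same libraries. The summed level of the chloroplastic genes was 4614, 3698, 5651 and 5291 FPKM in wild types, 4591, 5185, 3708 and 3460 in the overexpressor and 4733, 5349, 3950 and 5000 in *glct2*. The ranges overlapped widely, with 2 wild types above every overexpressor library and overexpressor replicate 4 below every wild type. Without wild type replicate 2, 3 of the 27 were called lower in the overexpressor, *AT1G68590*, *PSRP5* and *RPL31*, and without overexpressor replicate 2, *AT1G68590* alone was (−0.58, limma adjusted p = 0.017).

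**Figure D4:**
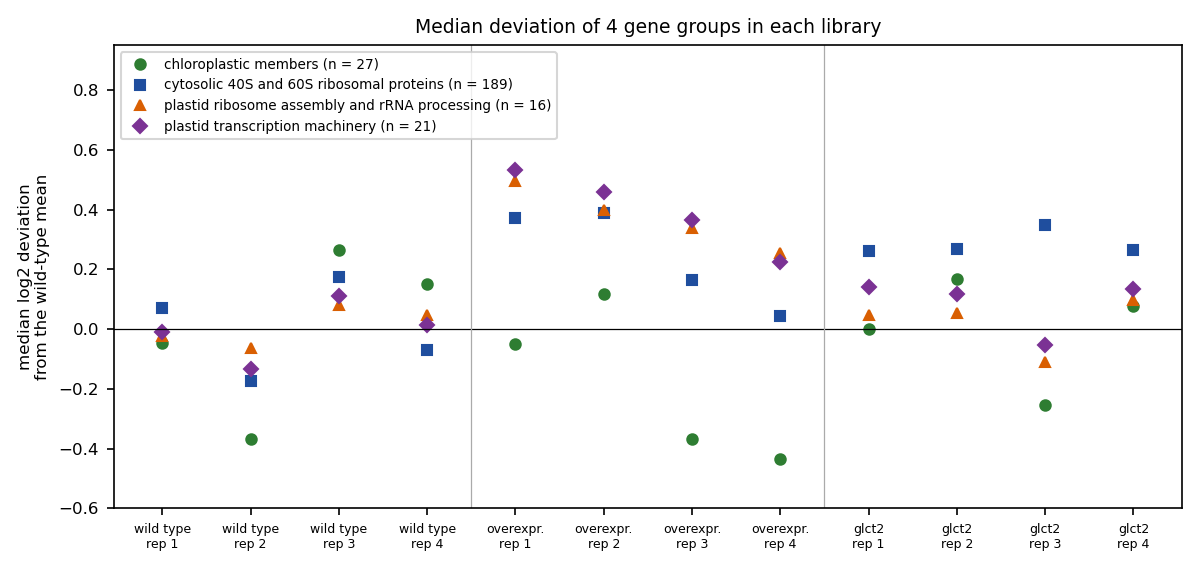
Median log2 deviation from the wild-type mean in each of the 12 libraries (replicates in no order) for the 27 chloroplastic genes, 189 genes for cytosolic ribosomal proteins, 16 for plastid ribosome assembly and 21 for plastid transcription. The chloroplastic genes range from −0.37 to 0.27 in wild types and from −0.43 to 0.12 in the overexpressor. The cytosolic, assembly and transcription groups are above 0 in all 4 overexpressor libraries, and the cytosolic group is so in all 4 *glct2* libraries as well (0.26 to 0.35).

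Levels of other groups are given for the same libraries, and their part in the result was not tested. Not all of them followed the chloroplastic sum. The phloem sum was lowest in wild type replicate 3 (96.2 FPKM), where the chloroplastic sum was highest. It was highest in overexpressor replicate 4 (168 FPKM), where the chloroplastic sum was lowest. Other libraries went the other way. In *glct2* replicate 3 both sums were the lowest of that genotype (114 and 3950 FPKM). Among wild types, the phloem sum was highest in replicate 4 (129 FPKM), where the chloroplastic sum was 5291 FPKM. The 3 leaf mesophyll markers (a small subunit of Rubisco, Rubisco activase and a chlorophyll a/b-binding protein) summed to 23396 to 33563 FPKM in wild types, with the lowest sum in replicate 2, to 10052 to 13692 in the overexpressor and to 15846 to 24208 in *glct2*, and 2 of the 3 were called lower in the overexpressor. In whole leaves, fewer cells of a type and less RNA per cell cannot be told apart. Of 8 markers of dividing cells none was called, 1 was at 0 in all libraries, and their sum was 38.2 to 48.1 FPKM in wild types and 37.7 to 50.8 in the overexpressor. Of the 4 guard cell markers 2 were called lower in the overexpressor, where they summed to 16.5 to 32.7 FPKM against 40.3 to 72.8 in wild types and 41.4 to 55.5 in *glct2*. Of 3 phloem markers 1 was higher and 1 lower in the overexpressor, where they summed to 123 to 168 FPKM against 96.2 to 129 in wild types and 114 to 147 in *glct2*. Of 3 senescence markers none was called in the overexpressor and 1 was lower in *glct2*, with sums of 39.2 to 91.9 and 33.7 to 96.5 FPKM against 29.5 to 95.7 in wild types. Of 4 root markers 3 were under 1 FPKM in all libraries and the other was lower in the overexpressor than in *glct2*, and of 5 flower markers 2 were under 1 FPKM and none was called. The 209 genes for cytosolic 40S and 60S ribosomal proteins, of which 189 were tested, had 75 called higher and 1 lower in the overexpressor (median 0.25) and 22 higher and 0 lower in *glct2* (median 0.28), where 18.7% and 1.95% of all tested genes were called higher. Without 1 library, the calls in the overexpressor ranged from 39 to 114, with 40 or fewer when wild type replicate 2 or 4 or overexpressor replicate 1 was left out, 46 without overexpressor replicate 2 and 114 without overexpressor replicate 4. Those in *glct2* ranged from 1 (wild type replicate 4 or *glct2* replicate 3) to 45 (overexpressor replicate 4).

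Set against the cytosolic genes in the same library, the chloroplastic sum was smaller in each overexpressor library than in any wild type. It was 22.6, 21.5, 25.8 and 28.6% of the cytosolic sum in wild types, 18.03, 20.6, 16.9 and 17.3% in the overexpressor and 20.3, 23.0, 16.0 and 21.4% in *glct2*. The *glct2* libraries overlapped with both. A difference in this percentage shows unequal change of the groups, not which of them changed.

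Several proteins have a copy or a counterpart, and their ratio within a library takes out a factor that scales both alike. *RPL12C* stood above *RPL12A* by a ratio of 1.303 to 1.53 in wild types, of 1.71 to 1.86 in the overexpressor and of 1.45 to 1.67 in *glct2*. The overexpressor lay outside the range of the wild types (exact permutation test, two-sided, p = 0.029, the smallest that 4 against 4 allows, and 0.34 after Benjamini-Hochberg adjustment over 18 comparisons). Because these copies are near-identical and the counting of their shared reads is not given, this ratio is uncertain. For the L19 pair, *AT4G17560* and *AT5G47190*, the ratio was 0.91 ± 0.06 in wild types and 0.95 ± 0.04 in the overexpressor (SD, n = 4), and the ranges overlapped. *RPL3A* was 9.13 ± 2.51 times as high as *RPL3B* in wild types and 6.60 ± 1.28 times in the overexpressor, with overlap (SD, n = 4).

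In 6 pairs of nuclear genes, the plastid protein was compared with a counterpart of the same name and another or no stated location, and its level was the higher one in all 12 libraries. In wild types *RPS9* stood 12.2 ± 1.86 times above *RPS9M*, *RPL27* 9.54 ± 1.77 times above *AT2G16930*, *RPS31* 4.69 ± 0.79 times above *AT2G21290* and *RPL10* 3.57 ± 0.73 times above *AT3G12370* (SD, n = 4). The counterparts of the risen genes are *RPL4* and *RPL24*, whose descriptions lie outside the wording used here. The ratio of *RPL4* to *AT2G20060* was 5.59 to 10.8 in wild types and 3.56 to 6.06 in the overexpressor. That of *RPL24* to *AT5G23535* was 10.5 to 17.2 in wild types and 9.15 to 10.5 in the overexpressor. Both pairs of ranges overlapped slightly, and no ratio passed the adjustment. Over 18 comparisons a single ratio at the smallest exact permutation p of 0.029 could not have passed it. No conclusion is drawn from that outcome.

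**Figure D5:**
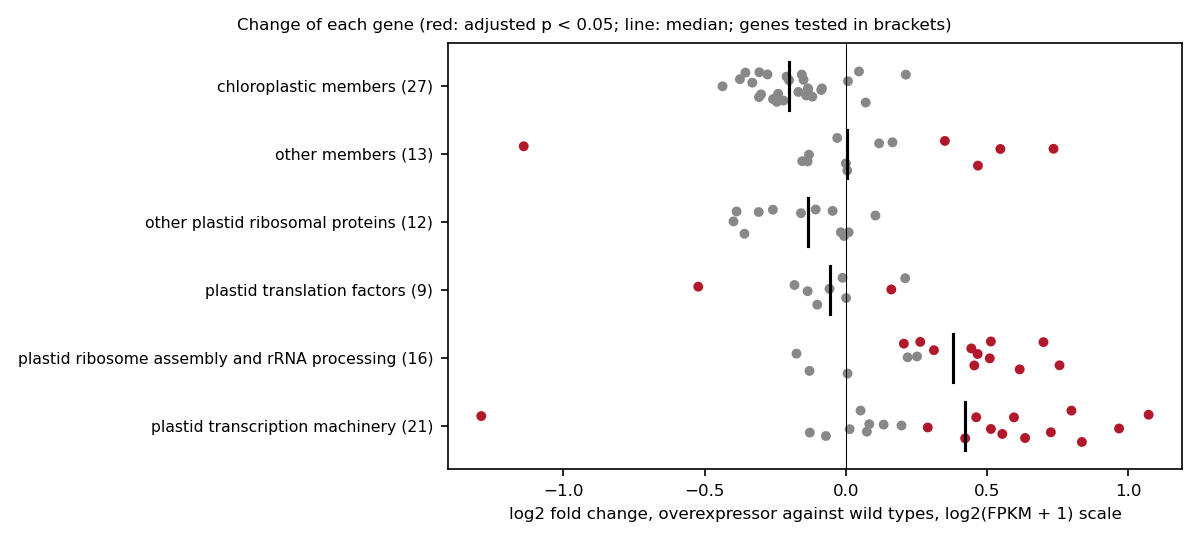
Log2 fold change of each tested gene in the overexpressor against wild types for 6 groups, with called genes in red and the median of a group as a black line. The chloroplastic genes have a median of −0.20 and none called, while plastid ribosome assembly (median 0.38, 11 of 16 higher) and plastid transcription (0.42, 12 of 21 higher) lie to the right.

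Genes that build and use plastid ribosomes were then looked at by lists. The 12 plastid ribosomal proteins outside the wording resembled those within it, with 0 called in each comparison by limma or voom, 1 lower at an unadjusted p under 0.05 in the overexpressor and 0 in the other comparisons, and a median of −0.13 in the overexpressor. Among them were *GHS1* (S21), whose mutant is hypersensitive to glucose, at −0.36 ± 0.23, *RPL4* at −0.31 ± 0.19 and *RPL24* at −0.01 ± 0.14 (SE).

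Factors for ribosome assembly and rRNA processing changed more. In the overexpressor 11 of 16 were higher and 0 lower, with a median of 0.38, against 18.7% of all tested genes called higher. The smallest p belonged to *RH22* and *RH39*, helicases of the assembly of the 50S subunit and of 23S rRNA cleavage, and to *RAP*, which trims the 16S precursor. *RH22* had 12.4 FPKM in wild types, 21.8 in the overexpressor and 13.5 in *glct2* and rose by 0.76 ± 0.09 (limma adjusted p = 7.6e-05), *RH39* rose by 0.51 ± 0.07 and *RAP* by 0.70 ± 0.10. In *glct2* 0 of 16 were called (1 higher at an unadjusted p under 0.05, 0 by voom), and the median was 0.01.

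The plastid transcription machinery had 12 of 21 higher and 1 lower in the overexpressor, with a median of 0.42, against 18.7% and 19.9% of all tested genes called. *FLN2*, a kinase-like protein attached to the plastid-encoded polymerase, rose by 1.07 ± 0.15 (limma adjusted p = 1.6e-04), and *FSD2* and *FSD3*, its superoxide dismutases, by 0.84 ± 0.11 and 0.80 ± 0.11. *SIG1* (*SIGA*), a sigma factor that guides the same polymerase to promoters of photosynthesis genes, fell from 75.0 FPKM in wild types to 30.04 in the overexpressor (−1.29 ± 0.10, adjusted p = 3.2e-06) and 43.2 in *glct2* (−0.79 ± 0.10, adjusted p = 0.0011). No other gene of the 21 was called in *glct2*, where 4.57% of all tested genes were.

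Of 10 translation factors, 9 were tested, with 1 called higher and 1 lower in the overexpressor, against 18.7% and 19.9% of all tested genes. *IF3-4*, an initiation factor of the IF-3 type, fell by 0.52 ± 0.07 in the overexpressor (limma adjusted p = 1.1e-04), and *PRFB1*, a release factor, rose by 0.16 ± 0.05 (adjusted p = 0.025), a call that was lost when replicate 2 or 3 of the wild types, or replicate 1 or 3 of the overexpressor, was left out. The elongation factor gene *TUFA* had almost no reads and lies for 89.7% of its length under a noncoding RNA of the opposite strand. In *glct2* 0 of the 9 were called (1 lower at an unadjusted p under 0.05, 0 by voom). Of the 22 genes for ribosomal proteins in the plastid genome, 13 were tested. In the overexpressor 1 was called higher and 3 lower, against 18.7% and 19.9% of all tested genes. The 3 were *RPL33*, *RPL32* and 1 of the 2 identical copies of *rpl2-A*. Reads of such copies cannot be assigned, so that call is uncertain. Plastid mRNAs mostly lack a poly(A) tail, and how the libraries selected mRNA is not given in the sources used here.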

How the data were processed

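RNA of 12 leaf samples (3 genotypes by title, 4 biological replicates each) was sequenced from directional libraries. Named in the submitters' processing notes are TAIR10, fastp, HISAT2 2.0.5 and StringTie 1.3.3. The counting program, annotation and strand setting are not given in the sources used here. The deposited FPKM were made by the authors, together with 3 columns of means that were not used. FPKM times gene length gave whole reads (100% within 0.01 of a step), 17448191 to 24276381 per library.

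Log2(FPKM + 1) of the 18354 genes that reached 1 FPKM in 4 or more libraries was fitted with limma 3.58.1 (R 4.3.3, statmod 1.5.0, eBayes with trend, 9 residual degrees of freedom), one model over the genotypes without replicate block, Benjamini-Hochberg over all tested genes, threshold 0.05. The study's methods name no test for these data. Limma voom was run on the recovered reads. The fit was also run on simulated reads with known folds. These were drawn for each gene separately with the same dispersion for all. They therefore do not cover the wider, shared spread of the chloroplastic genes. Figures and tables used python 3.11.15, pandas 2.3.3, numpy 2.4.6, scipy 1.17.1 and matplotlib 3.10.9. Intervals are 95%.

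The genes and lists were chosen with earlier results of these data known. Named were called genes, the 5 highest and 3 lowest, copies, well-known members and up to 3 called list members per direction. *RPL34*, *RPS31* and *RPL31* and the called plastid-encoded genes were named after their values were seen. Promoter windows came from the RefSeq TAIR10.1 genome, where all 44 genes had the same start. Results of a few single genes are not reported here.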

Additional observations from a re-analysis of the deposited data

Results flagged for a closer look

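In 120 sets of 4 libraries (40 genes in 3 genotypes), 5 held a library far from the other 3 by Dixon's ratio, where chance gives about 1 in 20. *AT5G24490* had 48.1 FPKM in overexpressor replicate 4, with the others at 73.5 to 76.1. *AT2G20060* had 17.3 FPKM in wild type replicate 4, with the others at 20.8 to 21.5. *HLP* had 20.3 FPKM in *glct2* replicate 3, with the others at 17.3 to 17.8. *RPL10* had 35.01 FPKM in *glct2* replicate 3, with the others at 53.4 to 57.0. *AT1G29040*, described as L34 and as an unknown protein in the reference annotation, had 15.3 FPKM in overexpressor replicate 3, with the others at 12.2 to 12.7.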

How the results depend on the processing

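There were 25 alternatives, 12 of them without 1 library. Of these, a minimum absolute log2 fold change of 0.5 was not applied to the 43 single-gene values. In all the other alternatives, 24 of the 43 kept direction and side of the threshold. The 5 calls in the overexpressor against wild types were kept in all 25 alternatives, except that the minimum fold dropped *AT5G23535* and *RPS16-2*. The cause of the other differences was not tested. The depth limits genes of few reads, and for chloroplastic genes the spread between libraries is the wider limit. Rescaling to the recovered reads moved the median of all genes by 0.12 in the overexpressor and 0.097 in *glct2*, and its calls are to be read relative to that.

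Without 1 library each, the calls among the 40 genes in the overexpressor against wild types ranged from 4 to 6 higher and 1 to 5 lower (chloroplastic 0 to 3), in *glct2* from 0 to 1 higher, 0 to 1 lower (chloroplastic 0 to 1), and between overexpressor and *glct2* from 1 to 4 higher, 2 to 4 lower (chloroplastic 0 to 1). The libraries behind the ends of these ranges were wild type replicate 2 (5 lower, 3 chloroplastic), overexpressor replicate 4 (*glct2*), overexpressor replicate 1 and *glct2* replicate 2 (1 higher) and overexpressor replicate 2 (4 lower). For cytosolic ribosomal proteins they ranged from 39 to 114, 1 to 45 and 6 to 14 in these comparisons, for assembly from 10 to 13, 0 to 0 and 9 to 13, for transcription from 13 to 14, 1 to 1 and 10 to 13, and for translation factors from 1 to 2, 0 to 0 and 2 to 2. *RPL12C* ranged from −0.19 to 0.013, *RPS1* from −0.023 to 0.10, *AT4G17560* from −0.030 to 0.18 and *AT5G47190* from −0.14 to 0.11 in the overexpressor, so these changed sign.

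With the other settings, the members called in the overexpressor against wild types were 7 higher after rescaling to the recovered reads, 2 higher with the minimum fold, and 2 lower with quantile normalization and 6 lower with library quality weights. Of the chloroplastic ones, 1 was called with a filter at 5 FPKM, after rescaling without the 50 highest genes, after rescaling to the recovered reads, by voom and with the replicate block, 2 with quantile normalization and 6 with quality weights. In *glct2*, 2 were higher with the filter at 5 FPKM, 1 with quantile normalization and by voom, 4 after rescaling without the 50 highest genes, 6 after rescaling to the recovered reads and 3 with quality weights, which also called 1 lower. Each of these 6 settings called 1 chloroplastic gene, *RPL3B*. Between overexpressor and *glct2*, 2 were higher after rescaling without the 50 highest genes and 0 with the minimum fold, and 7 were lower with quality weights (4 chloroplastic) and 1 with the minimum fold. *RPL12C* turned to 0.044 after rescaling to the recovered reads, and *AT5G47190* to −0.030 with quantile normalization and −0.090 with quality weights.

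Cytosolic ribosomal proteins called in the overexpressor were 147 after rescaling to the recovered reads, 43 with the 2 groups alone and 6 with the minimum fold. In *glct2* they were 8 with no filter, 48 without the 50 highest genes, 106 with the recovered reads, 5 with the block, 37 with the 2 groups alone, 57 with quality weights and 2 with the minimum fold, and between the mutants 14 with quality weights and 1 with the minimum fold. Assembly factors called were 5 in the overexpressor and 3 between the mutants with the minimum fold, and 1 in *glct2* with the recovered reads. For transcription, *glct2* had 2 with the recovered reads, 2 with the 2 groups alone and 3 with quality weights, and the mutants 6 with the minimum fold. Translation factors called in the overexpressor were 1 with the 2 groups alone and 1 with the minimum fold, in *glct2* 1 with quality weights and between the mutants 0 with the minimum fold. The replicate numbers are shared only as numbers (12 pairs, r from −0.33 to 0.33, 3 of 12 libraries closest to their own number), and the replicate block added *RPL3B* (0.21) to the calls in the overexpressor.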

Other observations

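The share that each gene took of the chloroplastic sum ranged from 0.45 ± 0.11% for *RPL3B* to 6.05 ± 0.32% for *RPL12C* in wild types (SD, n = 4). Against wild types, the shares of 5 of the 27 genes did not overlap in the overexpressor (2 higher, 3 lower). In *glct2* this held for 7 (4 higher, 3 lower). No count over all tested genes exists for such shares. For levels, the libraries of 34.5% of all tested genes did not overlap in the overexpressor and of 16.9% in *glct2*. On this scale *AT1G68590* was at 3.65 ± 0.14% in wild types and 3.06 ± 0.22% in the overexpressor, with no overlap. The L19 copies stood at 2.27 ± 0.08% and 2.51 ± 0.11% in wild types and at 2.71 ± 0.12% and 2.86 ± 0.02% in the overexpressor, again with no overlap (SD, n = 4). *AT4G17560* and *AT5G47190* were also above the range of the wild types in *glct2*, at 2.47 ± 0.13% and 2.75 ± 0.07%. These shares add up to a fixed sum, were looked at after the levels were seen, and carry no test.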
